A study of Mus musculus with 27 samples.

Results

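The immunity-related GTPases (IRGs) are a family of interferon-inducible GTPases, and 9 of its mouse genes were followed here among the 54752 genes of the count tables. The members were taken by name: Irgm1, Irgm2, Igtp, Iigp1, Gm4951, Tgtp1, Tgtp2, Gm12250 (also called Irgb10) and Ifi47. Each was found once in both count tables and passed the filter on low counts in every comparison.

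IRG proteins are made in mouse cells after interferon-gamma, and at lower levels after type I interferon. They gather on the membrane of vacuoles that hold intracellular parasites or bacteria and break it. The regulatory members Irgm1, Irgm2 and Igtp (Irgm3) sit on the membranes of the cell itself and hold the effector members inactive there. The effectors include Iigp1 (Irga6), Tgtp1 and Tgtp2 (both Irgb6), Gm12250 and Ifi47 (Irgd). The guanylate-binding proteins (GBPs), a related family of larger GTPases, act on the same vacuoles. Both tumor cells and the immune and stromal cells of a tumor can make these RNAs.

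RNA was measured by RNA-seq in CT26 tumors, 5 per group. CT26 is a transplantable colon carcinoma line of BALB/c mice. The cells were transduced with a retrovirus and given a guide RNA against Mettl3 (Mettl3 KO), against Mettl14 (Mettl14 KO) or a control guide (control), and were then placed under the skin of BALB/c mice. Mettl3 and Mettl14 form the complex that places N6-methyladenosine on messenger RNA, and the series asked which genes differ in tumors depleted of either protein under anti-PD-1 therapy. Per the protocols, antibody was given at 200 µg (10 mg/kg), first at day 11, then at days 14, 17 and 20, and last at day 23. The protocols also list other antibodies (against CTLA-4, and IgG), and the link of these tumors to anti-PD-1 comes from the design text of the series. The genotype field of the tumors titled Mettl14 reads Mettl4, and the titles and the count columns, which read Mettl14, were followed. The guides act in the CT26 cells alone, so host cells in the tumors keep both genes. Whether a knockout line is 1 clone, and which sample came from which animal, is not given in the sources used here, so p-values measure only the spread between these samples. The series has 27 samples, and the 12 immunoprecipitation and input samples were not analysed here.

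The libraries held 4.35 to 9.33 M reads on genes (M for mega) in Mettl3 KO, 6.45 to 17.0 M in Mettl14 KO and 5.52 to 20.98 M in control tumors. Reads outside genes made up 68.3 ± 7.16% of uniquely aligned reads in Mettl3 KO, 58.5 ± 5.25% in Mettl14 KO and 54.8 ± 13.9% in control tumors (SD, n = 5 each), with control replicate 1 at 78.6%. Mettl3 RNA averaged 13.7 ± 1.47 CPM in tumors with that guide, against 19.4 ± 3.67 CPM in controls, a log2 fold change of -0.56 (edgeR adjusted p = 0.0545, SE 0.15). Mettl14 RNA averaged 61.3 ± 12.4 CPM in its own knockout, against 69.0 ± 11.7 CPM in controls, a log2 fold change of -0.21 (edgeR adjusted p = 0.735, SE 0.17). Neither targeted gene passed the test, the groups overlapped for both, and a read count does not show whether a coding frame is intact. The gene not targeted was also negative in each comparison. Mettl14 had -0.40 in Mettl3 KO tumors (edgeR adjusted p = 0.141, SE 0.18). Mettl3 had -0.23 in Mettl14 KO tumors (edgeR adjusted p = 0.591, SE 0.13). Whether either targeted gene fell beyond other genes was not tested. The summed level of 8 epithelial markers was 82.7 ± 25.95 (Mettl3 KO), 123 ± 36.4 (Mettl14 KO) and 211 ± 24.7 CPM (control; SD, n = 5 each), and none of the 8 was without reads in a whole group. Single markers did not all follow the sum. Of 6 tested in Mettl3 KO tumors, Krt20 fell with a log2 fold change of -1.76 (edgeR adjusted p = 0.0217, SE 0.28), Krt18 stood at -0.89 (edgeR adjusted p = 0.105, SE 0.34), and Krt19, Cdh1, Krt8 and Epcam had positive values of 0.40 to 1.22 that did not pass. Of 7 tested in Mettl14 KO tumors 0 passed, where 0.0% of all genes did, and the median log2 fold change of the 7 was -0.46.

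The promoters of these genes were searched for the sequences through which interferon acts, because the members moved together in the tumors. Interferon-gamma acts through the gamma-activated sequence, here TTCNNNGAA, which reads alike on both strands. The interferon-stimulated response element was searched by its core, GAAA repeated on 1 strand with any 2 bases between the copies, on both strands (a repeat of TTTC on the other strand). RefSeq promoters of GRCm38.p6 (mm10), from 250 bases before to 50 after the transcript start, were matched for 7 of the 9 members, and Iigp1 and Gm4951 had no entry. Of all 32851 promoters, 8.3% held TTCNNNGAA, 3.44% held the response element core and 0.454% held both. Of the 7 members, 5 held TTCNNNGAA, 6 held the core and 5 held both. The 110 bases before each start are shown 5′ to 3′ in the direction of transcription, with matches of either motif in capitals.
Igtp: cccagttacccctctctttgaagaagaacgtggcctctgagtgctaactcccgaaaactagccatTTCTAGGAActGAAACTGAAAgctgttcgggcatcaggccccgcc
Irgm2: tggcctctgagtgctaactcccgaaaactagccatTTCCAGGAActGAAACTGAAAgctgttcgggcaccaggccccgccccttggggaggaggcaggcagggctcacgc
Tgtp1: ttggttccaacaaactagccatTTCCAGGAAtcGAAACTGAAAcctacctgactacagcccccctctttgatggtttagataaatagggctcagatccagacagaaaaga
Tgtp2: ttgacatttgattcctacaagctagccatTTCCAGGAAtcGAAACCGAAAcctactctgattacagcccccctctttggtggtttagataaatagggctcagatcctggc
Gm12250: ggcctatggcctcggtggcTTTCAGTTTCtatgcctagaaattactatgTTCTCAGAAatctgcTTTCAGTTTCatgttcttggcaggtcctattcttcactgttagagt
Irgm1: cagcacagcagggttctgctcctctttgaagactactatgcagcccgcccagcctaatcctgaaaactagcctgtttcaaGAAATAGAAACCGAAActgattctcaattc
Ifi47: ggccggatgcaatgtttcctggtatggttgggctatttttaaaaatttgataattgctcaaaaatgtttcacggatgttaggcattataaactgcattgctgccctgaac

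These stretches are chr11:58199446-58199555 (plus strand) for Igtp, chr11:58214867-58214976 (plus) for Irgm2, chr11:48992247-48992356 (minus) for Tgtp1, chr11:49064213-49064322 (minus) for Tgtp2, chr11:58183733-58183842 (plus) for Gm12250, chr11:48871421-48871530 (minus) for Irgm1 and chr11:49076477-49076586 (plus) for Ifi47. In Igtp, Irgm2, Tgtp1 and Tgtp2 the gamma-activated match was followed on the same strand by the response element core after 2 bases. This joined arrangement, searched for after the members' sequences had been read, was present in 5 of the 32851 promoters (0.0152%), and the fifth was that of Gm12185, another IRG-like gene on chromosome 11. The joined pair began at position -45 from the start in Igtp, -75 in Irgm2, -88 in Tgtp1 and -81 in Tgtp2. Aligned on the gamma-activated match without gaps, the Igtp and Irgm2 stretches were identical at 78 of 80 bases. The same count for Tgtp1 and Tgtp2 was 60 of 103. The Tgtp2 stretch holds an extra base shortly after the core, which puts the later bases out of register. That count therefore understates how alike the Tgtp1 and Tgtp2 stretches are. Members of a gene family share descent, so the 4 promoters are not independent sequences. Gm12250 held a gamma-activated match with the nearest response element core 6 bases away, on the opposite strand, and a second core farther upstream. Irgm1 held a pair of response element cores that overlap by 4 bases and no TTCNNNGAA. Ifi47 held neither motif in its promoter entry, which says only that these letters are not in that window. Of the 5 GBP genes with a promoter entry, all 5 held the response element core, 2 held TTCNNNGAA and 0 held the joined arrangement. A match is a run of letters and does not show that a factor binds there.

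Of the 9 genes, 7 lie on chromosome 11 and the other two on chromosome 18 (mm10, GENCODE M21 gene models). Igtp (11:58199556-58207591) and Irgm2 (11:58199618-58222782) lie on the plus strand, with gene models that overlap, and Gm12250 (11:58187739-58189012, plus strand) lies beside them. Irgm1 (11:48861968-48871683), Tgtp1 (11:48985327-48994172) and Tgtp2 (11:49057194-49064206) lie on the minus strand of a second cluster, which ends with Ifi47 (11:49076587-49096974, plus strand). Iigp1 (18:60376027-60392634) and Gm4951 (18:60212080-60247820) lie on the plus strand of chromosome 18. The GENCODE model of Gm12250 is a single exon called a processed pseudogene, whereas RefSeq lists the gene as protein coding.

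All 9 members were higher in Mettl3 KO tumors than in control tumors, by log2 fold changes of 1.14 (Ifi47) to 2.23 (Tgtp1), and all 9 passed the test. The test was edgeR's quasi-likelihood test with Benjamini-Hochberg adjustment over all 21427 genes tested, called at an adjusted p under 0.05, and is written below as edgeR adjusted p. It called 266 genes, 1.24% of those tested, of which 87 (0.406%) were higher and 179 (0.835%) lower in Mettl3 KO tumors. With RLE size factors the split was 72 higher and 28 lower, and with library totals alone 106 higher and 16 lower. The median log2 fold change over all genes was -0.14 under trimmed mean of M-values (TMM) scaling, -0.049 with RLE and 0.020 with library totals, and the members' median was 1.90. For each of the 9 members, every Mettl3 KO tumor was above every control tumor, which was so for 385 of the 21427 genes (1.8%). In Mettl14 KO tumors the same genes had log2 fold changes of 1.40 (Ifi47) to 2.58 (Gm12250) against the same control libraries, and 0 of 9 passed the edgeR test, as did 0 of 21555 genes (0.0%). At an unadjusted p under 0.05, 9 of 9 members and 2444 genes (11.3%) differed, 1022 of these (4.74%) being higher in Mettl14 KO tumors. DESeq2 called 9 of 9 members and 505 genes (2.35%) in that comparison, and limma voom called 0 of 9 members and 0 genes (0.0%). The contrast in calls between the knockouts rested on the fit. With all 15 libraries in 1 edgeR fit, 3 of 9 members were called in Mettl3 KO (42 genes, 0.171%) and 7 of 9 in Mettl14 KO (50 genes, 0.204%). Without a filter on low counts it was 4 of 9 in Mettl3 KO (62 genes, 0.124%) and 4 of 9 in Mettl14 KO (47 genes, 0.0941%). These are bulk tumors, so that more cells of a type that makes these RNAs and more RNA per cell cannot be told apart.

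**Figure D1:**
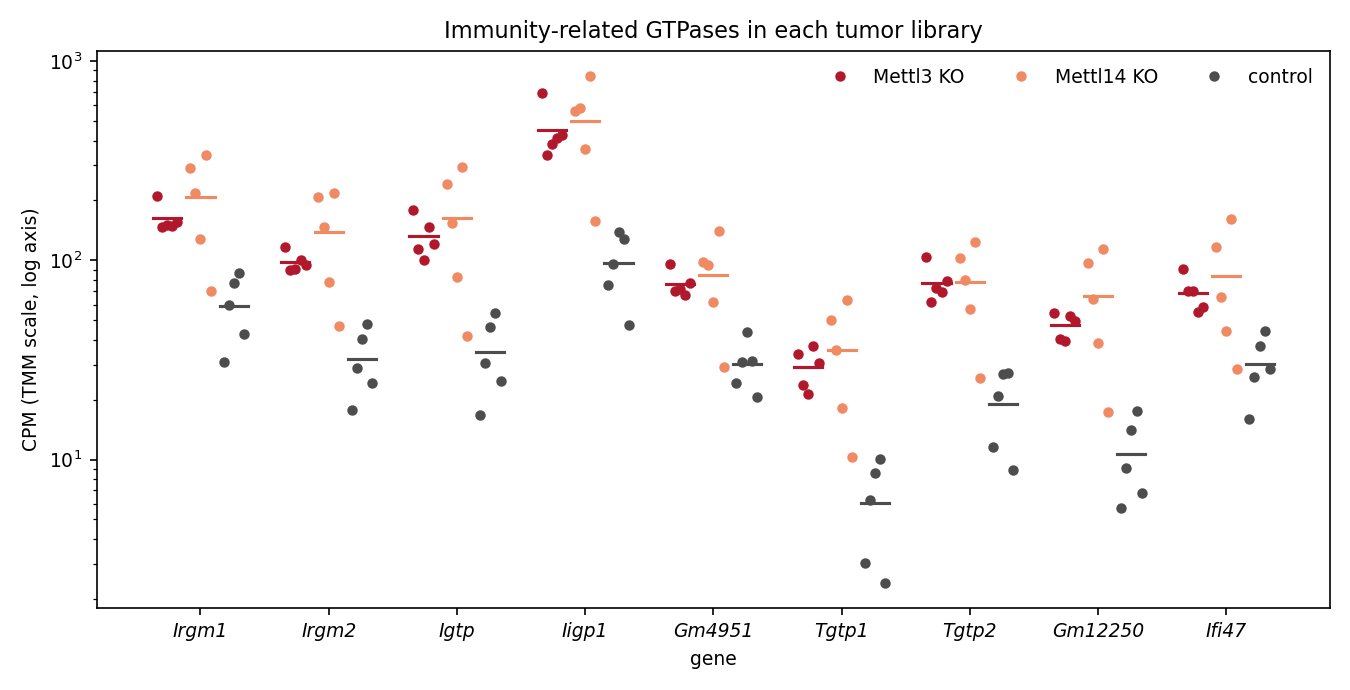
Level of each IRG gene in each tumor library, in CPM on the TMM scale (log axis), with 5 points per group in order of replicate number and a bar at the mean. All Mettl3 KO points lie above all control points for all 9 genes, while the Mettl14 KO points spread more widely and replicate 5 lies among the controls for 7 of the 9 genes.

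CPM here counts the reads of 1 gene per 1 M gene reads of the library, after TMM scaling, and values follow the order of replicates 1 to 5 of each group. Irgm1, a regulatory member that acts at the Golgi and at lysosomes, had 211, 148, 151, 149 and 157 CPM in the Mettl3 KO tumors and 293, 219, 128, 338 and 70.0 CPM in the Mettl14 KO tumors, against 30.7, 59.7, 76.6, 86.4 and 42.7 CPM in the control tumors. All Mettl3 KO tumors lay above all control tumors, and Mettl14 KO replicate 5 lay among the controls. The means were 163 ± 27.1 (Mettl3 KO), 209 ± 111 (Mettl14 KO) and 59.2 ± 23.1 CPM (control) (SD, n = 5 each). Irgm1 rose in Mettl3 KO tumors with a log2 fold change of 1.43 (edgeR adjusted p = 0.0321, SE 0.25). The log2 fold change in Mettl14 KO tumors was 1.78 (edgeR adjusted p = 0.157, SE 0.39).

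Irgm2, the second regulatory member, had 116, 89.4, 90.6, 100.1 and 95.004 CPM in the Mettl3 KO tumors and 207, 147, 77.6, 219 and 46.8 CPM in the Mettl14 KO tumors, against 17.7, 28.8, 40.4, 48.2 and 24.2 CPM in the control tumors. Again no Mettl3 KO tumor reached down to the controls, and Mettl14 KO replicate 5 lay just under the highest control. Its means were 98.3 ± 10.9 (Mettl3 KO), 139 ± 76.5 (Mettl14 KO) and 31.9 ± 12.3 CPM (control) (SD, n = 5 each). Irgm2 rose in Mettl3 KO tumors by 1.59 (edgeR adjusted p = 0.0186, SE 0.24) on the log2 scale, and its log2 fold change in Mettl14 KO tumors was 2.08 (edgeR adjusted p = 0.130, SE 0.40).

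Igtp, the third regulatory member, which sits on the endoplasmic reticulum and on lipid droplets, had 179, 114, 101, 146 and 121 CPM in the Mettl3 KO tumors and 241, 154, 82.7, 294 and 41.9 CPM in the Mettl14 KO tumors, against 16.7, 30.5, 46.5, 54.5 and 24.8 CPM in the control tumors. The Mettl3 KO and control tumors did not overlap, and Mettl14 KO replicate 5 lay among the controls. Group means were 132 ± 30.9 (Mettl3 KO), 163 ± 105 (Mettl14 KO) and 34.6 ± 15.6 CPM (control) (SD, n = 5 each). The log2 fold change of Igtp was 1.90 (edgeR adjusted p = 0.0216, SE 0.30) in Mettl3 KO tumors, a rise, and 2.18 (edgeR adjusted p = 0.153, SE 0.47) in Mettl14 KO tumors. Igtp and Irgm2 share 162 exon bases on the same strand, 8.01% of the exon length of Igtp, so reads from that stretch cannot be assigned with certainty.

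Iigp1, an effector that coats parasite vacuoles in mouse cells, had 691, 338, 385, 410.1 and 428 CPM in the Mettl3 KO tumors and 562, 582, 364, 843 and 157 CPM in the Mettl14 KO tumors, against 75.4, 96.1, 139, 129 and 47.4 CPM in the control tumors. It was 1 of 2 members for which all Mettl14 KO tumors, as well as all Mettl3 KO tumors, lay above all control tumors. The share of genes tested with such a separation was 0.677% in the Mettl14 KO comparison (146 genes). Iigp1 averaged 450.1 ± 139 (Mettl3 KO), 502 ± 257 (Mettl14 KO) and 97.4 ± 37.8 CPM (control) (SD, n = 5 each). It rose in Mettl3 KO tumors by 2.18 (edgeR adjusted p = 0.0127, SE 0.31) on the log2 scale. In Mettl14 KO tumors the log2 fold change was 2.31 (edgeR adjusted p = 0.130, SE 0.40). Gm4951, its neighbour on chromosome 18, had 95.7, 70.4, 71.8, 67.2 and 77.0 CPM in the Mettl3 KO tumors and 98.1, 94.6, 61.5, 140.1 and 29.1 CPM in the Mettl14 KO tumors, against 24.4, 30.9, 43.6, 31.2 and 20.5 CPM in the control tumors. Mettl14 KO replicate 5 was below the mean of the controls, and Mettl3 KO tumors all lay above the highest control. Gm4951 averaged 76.4 ± 11.3 (Mettl3 KO), 84.7 ± 41.7 (Mettl14 KO) and 30.1 ± 8.81 CPM (control) (SD, n = 5 each). Its log2 fold change was 1.30 (edgeR adjusted p = 0.0216, SE 0.21) in Mettl3 KO tumors, a rise, and 1.44 (edgeR adjusted p = 0.189, SE 0.34) in Mettl14 KO tumors.

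Tgtp1 and Tgtp2 encode the near-identical Irgb6 proteins, effectors that act on parasite vacuoles. Tgtp1 had 33.8, 23.8, 21.3, 37.0 and 30.5 CPM in the Mettl3 KO tumors and 50.1, 35.6, 18.1, 63.1 and 10.3 CPM in the Mettl14 KO tumors, against 3.02, 6.27, 8.58, 10.0 and 2.41 CPM in the control tumors. Both knockout groups lay above all control tumors, Mettl14 KO replicate 5 only narrowly. Tgtp2 had 104, 61.8, 72.9, 69.1 and 78.9 CPM in the Mettl3 KO tumors and 103, 80.2, 57.3, 124 and 25.8 CPM in the Mettl14 KO tumors, against 11.6, 20.8, 27.0, 27.2 and 8.84 CPM in the control tumors. Mettl14 KO replicate 5 lay among the controls for Tgtp2, and no Mettl3 KO tumor did. The means of Tgtp1 were 29.3 ± 6.62 (Mettl3 KO), 35.4 ± 21.9 (Mettl14 KO) and 6.06 ± 3.33 CPM (control) (SD, n = 5 each). Those of Tgtp2 were 77.4 ± 16.2 (Mettl3 KO), 78.2 ± 38.5 (Mettl14 KO) and 19.1 ± 8.53 CPM (control) (SD, n = 5 each). Tgtp1 rose in Mettl3 KO tumors by 2.23 (edgeR adjusted p = 0.0216, SE 0.36) on the log2 scale, and Tgtp2 rose by 1.99 (edgeR adjusted p = 0.0186, SE 0.30). In Mettl14 KO tumors the log2 fold change was 2.49 (edgeR adjusted p = 0.130, SE 0.50) for Tgtp1 and 1.99 (edgeR adjusted p = 0.130, SE 0.40) for Tgtp2.

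Reads of the Tgtp1 and Tgtp2 genes are hard to keep apart. Of the 75-base windows of Tgtp1 transcripts, 77.2% also occur in the transcripts of another gene, and of those of Tgtp2 81.4%. Tgtp1 took 27.5 ± 4.68% of the reads of the pair in Mettl3 KO tumors, 29.9 ± 3.85% in Mettl14 KO and 23.3 ± 2.47% in control tumors (SD, n = 5 each). With the counts of the pair summed into 1 feature, its log2 fold change was 2.06 in Mettl3 KO tumors (SE 0.31, edgeR adjusted p = 0.0186) and 2.13 in Mettl14 KO tumors (SE 0.43, edgeR adjusted p = 0.132). The mean normalized count of Tgtp1 in the authors' deposited table was 7.09 times that of the count table in the Mettl3 comparison and 6.46 times in the Mettl14 comparison. The ratio for Tgtp2 in the authors' deposited table was 3.15 and 3.23 in these comparisons, while the other 7 members lay between 0.939 and 1.178. Among all genes compared, 2.05% (Mettl3) and 2.54% (Mettl14) had a ratio of 3 or more, so the authors' deposited table and the count table do not hold the same level for every gene.

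Gm12250 (Irgb10), an effector that works with GBPs to open bacterial membranes in mouse macrophages, had 54.2, 40.3, 39.5, 52.8 and 49.5 CPM in the Mettl3 KO tumors and 97.4, 64.2, 38.4, 114 and 17.3 CPM in the Mettl14 KO tumors, against 5.73, 9.06, 14.1, 17.4 and 6.78 CPM in the control tumors. Mettl14 KO replicate 5 lay just under the highest control, and the Mettl3 KO tumors all lay above it. The gene averaged 47.3 ± 6.96 (Mettl3 KO), 66.3 ± 40.2 (Mettl14 KO) and 10.6 ± 4.98 CPM (control) (SD, n = 5 each). Gm12250 rose in Mettl3 KO tumors with a log2 fold change of 2.11 (edgeR adjusted p = 0.0102, SE 0.28), and its log2 fold change of 2.58 in Mettl14 KO tumors (SE 0.46, edgeR adjusted p = 0.130) was the highest of the 9 there.

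Ifi47 (Irgd), a further effector-type member, had 90.9, 70.4, 69.8, 55.1 and 58.3 CPM in the Mettl3 KO tumors and 116, 65.3, 44.0, 162 and 28.4 CPM in the Mettl14 KO tumors, against 15.9, 26.03, 37.1, 44.1 and 28.6 CPM in the control tumors. Replicates 3 and 5 of Mettl14 KO lay among the controls, and the Mettl3 KO tumors did not. Ifi47 averaged 68.9 ± 14.1 (Mettl3 KO), 83.2 ± 55.3 (Mettl14 KO) and 30.3 ± 10.8 CPM (control) (SD, n = 5 each). Its log2 fold change of 1.14 (edgeR adjusted p = 0.0484, SE 0.24) in Mettl3 KO tumors was the smallest rise of the 9, and that of 1.40 (edgeR adjusted p = 0.249, SE 0.41) in Mettl14 KO tumors was likewise the smallest. Ifi47 shares 111 exon bases with Olfr56 on the same strand and 106 with Gm12188 on the opposite strand. It is also the only one of the 7 members with a promoter entry that held neither motif. A link between motifs and fold change was not tested.

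**Figure D2:**
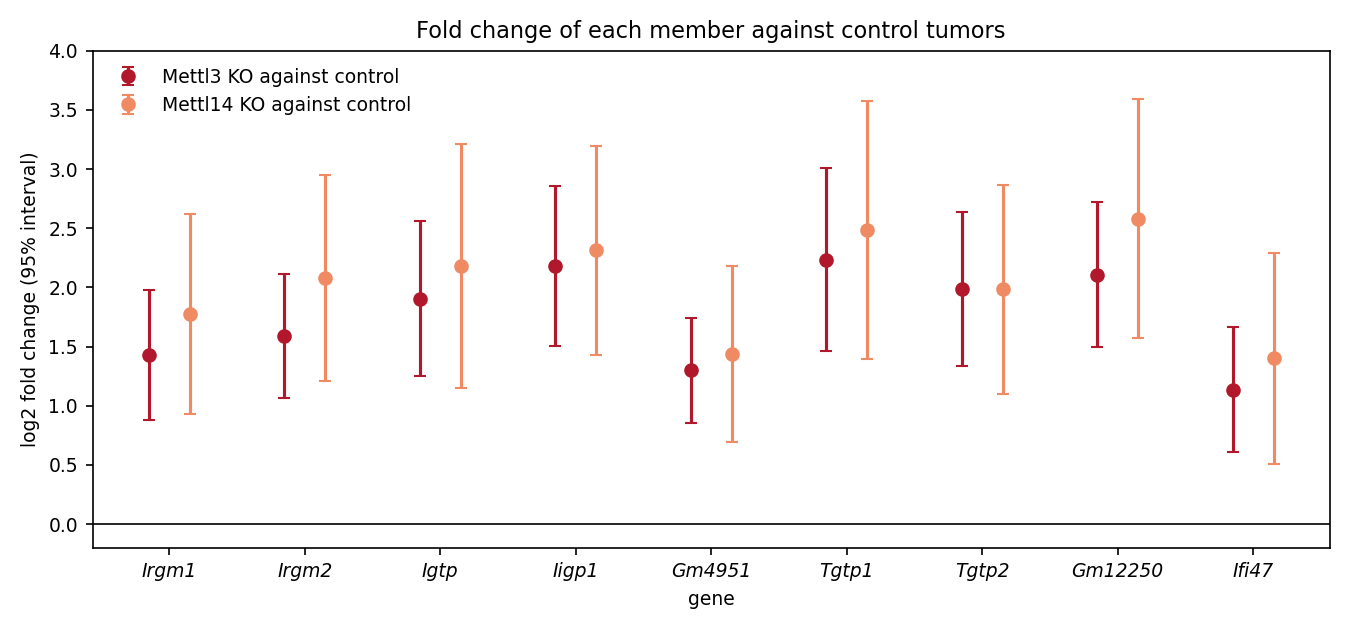
Log2 fold change of each IRG gene in either knockout against the same control tumors, with 95% intervals from edgeR. All 18 estimates lie above 0, from 1.14 (Ifi47, Mettl3 KO) to 2.58 (Gm12250, Mettl14 KO), and the Mettl14 KO intervals are the wider ones.

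The fold changes were also set beside those of genes of like abundance. Relative to the median of the genes in the same of 50 abundance bins, the members stood higher by 1.62 (Ifi47) to 2.79 (Iigp1) on the log2 scale in Mettl3 KO tumors. The same differences in Mettl14 KO tumors ran from 1.52 (Ifi47) to 2.69 (Gm12250). The medians subtracted were -0.61 to -0.36 in Mettl3 KO and -0.18 to -0.11 in Mettl14 KO, so the subtraction raised the Mettl3 KO values more. In the Mettl3 KO comparison 6918 genes (32.3%) had an unadjusted edgeR p under 0.05, of which 1128 were higher and 5790 lower. In the authors' deposited table, whose header does not state a direction, the log2 fold changes of the 9 members were all positive. They ran from 1.03 (Ifi47, adjusted p = 0.00232) to 2.32 (Iigp1, adjusted p = 1.1e-11) for Mettl3 in the authors' deposited table. For Mettl14 the authors' deposited table gave 1.31 (Ifi47, adjusted p = 0.0306) to 2.61 (Gm12250, adjusted p = 4.4e-06).

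The calls of the members depended on single libraries to different degrees. Irgm2, Iigp1, Tgtp2 and Gm12250 passed the edgeR test in Mettl3 KO tumors in all 10 fits that left out 1 library. Gm4951 was lost without control replicate 2, Igtp without control replicate 2 or 5, and Tgtp1 without Mettl3 KO replicate 5 or control replicate 2. Irgm1 was lost without Mettl3 KO replicate 2 or 5 or control replicate 2 or 5. Ifi47 passed in 2 of the 10 fits, those without control replicate 1 or 4, and its edgeR adjusted p over the 10 ran from 0.00165 to 0.157. Without control replicate 1, the library with the most reads outside genes, the members' log2 fold changes were 1.19 to 2.31 and all 9 passed, as did 11625 genes (51.6%). In the Mettl14 KO comparison 8 of 9 members passed without Mettl14 KO replicate 5 (148 genes, 0.678%), and 6 of 9 without control replicate 1 (1054 genes, 4.86%). Ifi47 was the member not called in either fit.

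**Figure D3:**
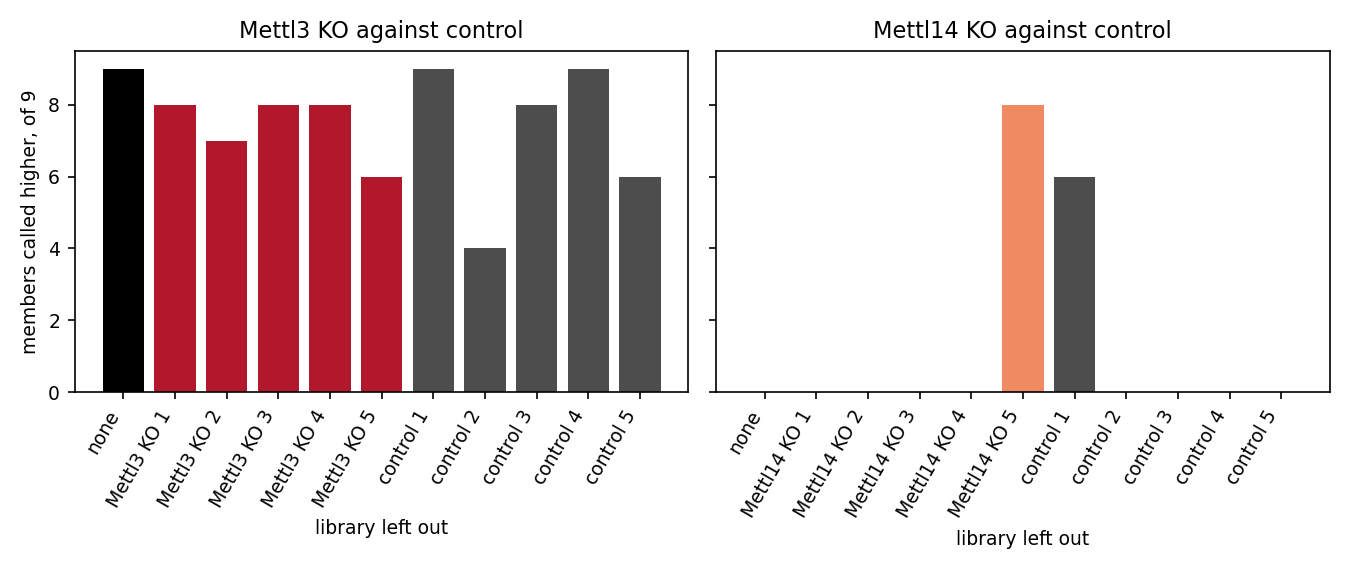
Number of the 9 IRG genes called higher (edgeR adjusted p under 0.05) when 1 library is left out, for Mettl3 KO against control (left) and Mettl14 KO against control (right), with the fit of all libraries at the far left of each panel. In Mettl3 KO the count runs from 4 (without control replicate 2) to 9, and in Mettl14 KO it is 0 except for 8 without Mettl14 KO replicate 5 and 6 without control replicate 1.

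The difference between the knockouts was tested directly in 1 fit of all 15 libraries. Log2 fold changes of Mettl3 KO over Mettl14 KO ran from -0.50 (Irgm2) to -0.010 (Tgtp2), with a median of -0.27, and edgeR adjusted p of 0.379 to 0.986. Genes of like abundance were also lower, with medians of -0.40 (those like Iigp1) to -0.26 (those like Tgtp1). Relative to these medians the members stood at -0.16 (Gm12250) to 0.33 (Tgtp2). No member was called by edgeR, DESeq2 or limma voom, 0 of 9 had an unadjusted p under 0.05, and edgeR called 0 of 24566 genes (0.0%), with 3152 (12.8%) at an unadjusted p under 0.05. DESeq2 called 68 genes (0.277%). The 95% interval of the log2 difference was -1.23 to 0.23 for Irgm2, -1.31 to 0.34 for Gm12250, -1.09 to 0.38 for Irgm1, -0.92 to 0.62 for Iigp1 and -0.76 to 0.74 for Tgtp2. The lower end lay below -1 on the log2 scale for Irgm2, Gm12250, Irgm1, Igtp, Tgtp1 and Ifi47, so a difference of that size could not be told from none in these members.

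As a family, the members made up a summed level of 1575, 956, 1002, 1087 and 1094 CPM in Mettl3 KO tumors and 1767, 1442, 871, 2299 and 427 CPM in Mettl14 KO tumors, against 201, 308, 433, 448 and 206 CPM in control tumors. Mettl14 KO replicate 5 lay between the control tumors, and Mettl14 KO replicate 4 was the highest library of all. The sums averaged 1143 ± 249 (Mettl3 KO), 1361 ± 735 (Mettl14 KO) and 319 ± 119 CPM (control; SD, n = 5 each). Iigp1 alone made up 38.9 ± 3.12% of the sum in Mettl3 KO, 37.5 ± 3.89% in Mettl14 KO and 30.5 ± 5.29% in control tumors (SD, n = 5 each).

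Per kilobase of exon, the order of the members differed between groups. In Mettl3 KO tumors Iigp1 (mean 77.3 CPM per kilobase), Igtp (65.3) and Gm12250 (37.1) stood highest, and Tgtp1 (9.13) lowest. Iigp1 was above Igtp in 4 of 5 tumors, whereas Igtp was above Gm12250, and Gm12250 above Gm4951, in 5 of 5. Gm4951, Irgm1, Ifi47, Irgm2 and Tgtp2 lay between 28.9 and 26.3 CPM per kilobase and could not be ordered, each exceeding the next in 2 or 3 of 5 tumors. In Mettl14 KO tumors the top 3 were again Iigp1 (86.2 CPM per kilobase), Igtp (80.5) and Gm12250 (52.1), with Tgtp1 (11.1) lowest. Iigp1 and Igtp could not be ordered there, with Iigp1 above in 3 of 5 tumors, while Igtp was above Gm12250 in 5 of 5. In control tumors Igtp (17.1 CPM per kilobase) and Iigp1 (16.7) could not be ordered, with Igtp above in 2 of 5, and Gm12250 (8.33) stood 7th. Tgtp1 was again lowest there (1.89), with 19 reads in control replicate 1 as the smallest count of any member. Exon lengths run from 1274 bases for the single-exon model of Gm12250 to 5823 for Iigp1, so levels per kilobase depend on the gene models. Most 75-base windows of Tgtp1 (77.2%) and Tgtp2 (81.4%) also occur in transcripts of another gene, so their places in this order are uncertain. In the authors' deposited table their mean normalized counts were 7.09 and 3.15 times those of the count table in the Mettl3 comparison.

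Within groups the members moved together from tumor to tumor. With each gene's log2 CPM centred on its group mean, Pearson's r over the 15 libraries was 0.793 to 0.990 across the 36 pairs of members, with a median of 0.939. Of 17315 named genes ranked outside the family, the 5 most like the family mean by this measure were Gbp4 (r = 0.978), Dtx3l (0.972), Gbp3 (0.972), Zbp1 (0.968) and Itgal (0.967). Dtx3l is a ubiquitin ligase, Zbp1 a sensor of unusual nucleic acids and Itgal an integrin of leukocytes. Spearman's rho was 0.939 to 0.982 for these 5. Without the 2 libraries farthest from the median, Mettl14 KO replicates 4 and 5, r was 0.932 to 0.953. Irf1, a transcription factor of interferon responses, had r = 0.950 (rho 0.875, and 0.897 without those 2 libraries). For Ifng, the gene of interferon-gamma itself, r was 0.563 (rho 0.557, and 0.296 without them). All of these are descriptions, since the points share library depth and composition.

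Other genes of the pathway were counted by list in the Mettl3 KO comparison, with the background of 1.24% of genes called. Of 11 GBPs, 11 rose, with a median log2 fold change of 2.04, and those with the smallest p were Gbp7 at 1.68 (edgeR adjusted p = 0.00986, SE 0.20), Gbp10 at 2.53 (edgeR adjusted p = 0.0102, SE 0.32) and Gbp3 at 1.93 (edgeR adjusted p = 0.0102, SE 0.24). GBP genes are related in sequence, and reads can be shared among them, which was not measured. In the Mettl14 KO comparison edgeR called 0 of all 21555 genes (0.0%), so the count called is 0 there for any list. The GBPs, with 0 of 11 called, had a median log2 fold change of 2.04 in Mettl14 KO tumors. Gbp7, Gbp10 and Gbp3 had values of 1.84, 2.62 and 2.01.

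Of 8 IRG-like genes outside the 9, 2 rose in Mettl3 KO tumors and 0 fell. Gm12185, the gene with the joined promoter arrangement, averaged 48.5 ± 13.2 (Mettl3 KO), 47.6 ± 30.3 (Mettl14 KO) and 8.52 ± 3.50 CPM (control) (SD, n = 5 each) and rose by 2.47 (edgeR adjusted p = 0.0102, SE 0.33) on the log2 scale. It shares 223 exon bases with Tgtp1. Gm4841 averaged 43.1 ± 5.55 (Mettl3 KO), 50.5 ± 25.8 (Mettl14 KO) and 10.2 ± 4.65 CPM (control) (SD, n = 5 each), with a log2 fold change of 2.04 (edgeR adjusted p = 0.0172, SE 0.30) in Mettl3 KO tumors. F830016B08Rik had 1.61 (edgeR adjusted p = 0.0524, SE 0.37) and did not pass. The atypical members Irgc1 and Irgq, which are known as family members without the interferon response, did not pass either. Irgq averaged 18.2 ± 3.15 (Mettl3 KO), 22.4 ± 3.43 (Mettl14 KO) and 23.3 ± 4.99 CPM (control) (SD, n = 5 each), with a log2 fold change of -0.43 (edgeR adjusted p = 0.126, SE 0.18) in Mettl3 KO tumors. Irgc1, a testis gene, had low levels in all groups, with 2.04 ± 0.739 (Mettl3 KO), 1.47 ± 1.23 (Mettl14 KO) and 1.24 ± 1.64 CPM (control) (SD, n = 5 each) and a log2 fold change of 0.72 (edgeR adjusted p = 0.464, SE 0.77) in Mettl3 KO tumors. In the Mettl14 KO comparison 0 of the 7 genes tested passed the edgeR test, where 0.0% of all genes did. The median log2 fold change of the 7 was 1.14.

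Of the genes of interferon-gamma signalling, 1 of 7 tested rose in Mettl3 KO tumors and 0 fell, and the median log2 fold change was 0.0085. Irf1, which rose, had 218, 175, 153, 145 and 168 CPM in the Mettl3 KO tumors and 319, 216, 130.5, 395 and 84.6 CPM in the Mettl14 KO tumors, against 40.7, 52.5, 91.3, 108 and 62.2 CPM in the control tumors. All Mettl3 KO tumors lay above all control tumors, and Mettl14 KO replicate 5 lay among the controls. Irf1 averaged 172 ± 28.3 (Mettl3 KO), 229 ± 129 (Mettl14 KO) and 71.0 ± 28.0 CPM (control) (SD, n = 5 each) and rose in Mettl3 KO tumors by 1.23 (edgeR adjusted p = 0.0463, SE 0.25) on the log2 scale. Irf8, a further factor of this group, had 0.90 (edgeR adjusted p = 0.0566, SE 0.25) and did not pass. The receptor genes Ifngr1 and Ifngr2 had log2 fold changes of -0.25 and -0.28 in Mettl3 KO tumors, also not called. Ifng averaged 2.87 ± 1.98 (Mettl3 KO), 2.43 ± 2.05 (Mettl14 KO) and 0.875 ± 0.676 CPM (control) (SD, n = 5 each), was under the count filter in the Mettl3 KO comparison, and had 1.44 (edgeR adjusted p = 0.503, SE 0.75) in Mettl14 KO tumors. In Mettl14 KO tumors 0 of 8 genes of this list passed the edgeR test, where 0.0% of all genes did. The list had a median log2 fold change of 0.44 there.

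Of 7 type I interferon signalling genes tested, Stat2 rose in Mettl3 KO tumors, with a log2 fold change of 0.98 (edgeR adjusted p = 0.0216, SE 0.16). Irf7 at 1.15 (edgeR adjusted p = 0.0524, SE 0.27) and Irf9 at 0.62 (edgeR adjusted p = 0.0529, SE 0.16) did not pass. The median of this list was 0.20 (Mettl3 KO) and 0.38 (Mettl14 KO), with 0 called by edgeR in Mettl14 KO, where 0.0% of all genes were. The ATG8 conjugation machinery, which in mouse cells directs IRG proteins to vacuoles, had 0 of 11 genes called in either knockout. Its medians were -0.49 (Mettl3 KO) and -0.092 (Mettl14 KO), and 1.24% and 0.0% of all genes were called in these comparisons. Atg16l1, Atg12 and Atg5, with the smallest p of that list, had log2 fold changes of -0.64, -0.53 and -0.68 in Mettl3 KO tumors (edgeR adjusted p = 0.0524, 0.0547 and 0.0645). In that comparison genes of like abundance to the IRG members had medians of -0.61 to -0.36. At an unadjusted edgeR p under 0.05, 5790 of 21427 genes were lower and 1128 higher. Whether the ATG8 machinery fell beyond this background was not tested.

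Markers of T cells, which make interferon-gamma, stood beside the family in the tumors. The summed level of 12 T cell markers was 124 CPM on average in Mettl3 KO tumors (range 70.4 to 227), 139.8 CPM in Mettl14 KO tumors (40.5 to 340) and 41.6 CPM in control tumors (15.8 to 59.7), with no marker at 0 in a group. In the highest Mettl14 KO library, replicate 4, and the highest Mettl3 KO library, replicate 1, the family sum was also the highest of the group. In control tumors this did not hold, since control replicate 1 had the highest T cell sum (59.7 CPM) and the lowest family sum (201 CPM). Of the 12 markers, 0 passed the edgeR test in either knockout, with median log2 fold changes of 1.501 (Mettl3 KO) and 1.59 (Mettl14 KO). Of all genes tested, 1.24% passed in Mettl3 KO and 0.0% in Mettl14 KO, so the count in Mettl14 KO is 0 for any marker list. Centred on group means, the T cell sum had r = 0.767 with the family mean over 15 libraries (rho 0.693), and 0.567 without Mettl14 KO replicates 4 and 5. The summed level of 11 macrophage markers had r = 0.542 (rho 0.471, and 0.305 without those 2 libraries), with 0 of 11 called by edgeR in either knockout. The summed level of 7 B cell markers averaged 183 (Mettl3 KO), 198 (Mettl14 KO) and 14.4 CPM (control), of which Mettl3 KO replicate 1 held 759 CPM and Mettl14 KO replicate 4 held 814 CPM. The summed level of 5 erythroid genes was 21.3 to 60.5 CPM in Mettl3 KO, 26.5 to 59.5 CPM in Mettl14 KO and 61.9 to 298 CPM in control tumors. Both knockouts thus lay below every control tumor, but only narrowly. How many of all genes lay wholly below the controls was not counted. Of these erythroid genes 3 of 5 fell in Mettl3 KO tumors, where 0.835% of all genes tested were called lower. The log2 fold changes were -2.16 (edgeR adjusted p = 0.0463, SE 0.44) for Hba-a1, -2.62 (edgeR adjusted p = 0.0349, SE 0.47) for Hbb-bs and -2.74 (edgeR adjusted p = 0.0485, SE 0.59) for Hbb-bt. All 3 are hemoglobin genes with near-identical copies. Of the same 5, 0 passed the edgeR test in Mettl14 KO tumors, and their log2 fold changes were -2.33 to -0.87. The summed level of 5 skeletal muscle genes was 22.2 to 644 CPM in Mettl3 KO, 3.76 to 31.1 CPM in Mettl14 KO and 23.1 to 273 CPM in control tumors. Their log2 fold changes were 0.11 to 0.65 in Mettl3 KO and -4.42 (Acta1) to -2.63 (Mylpf) in Mettl14 KO tumors, with 0 of 5 called by edgeR in either. No erythroid or muscle gene was without reads in a whole group. Of the dendritic cell, neutrophil, endothelial, fibroblast and keratinocyte markers, 0 were called by edgeR in either knockout. The share of all genes called was 1.24% in Mettl3 KO and 0.0% in Mettl14 KO. In that order of lists, the median log2 fold changes were 1.23, 0.56, -0.33, -0.14 and 0.91 in Mettl3 KO tumors. They were 0.69, 1.33, -0.17, 0.38 and 0.029 in Mettl14 KO tumors. The part of any of these cells in the levels of the family was not tested.

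**Figure D4:**
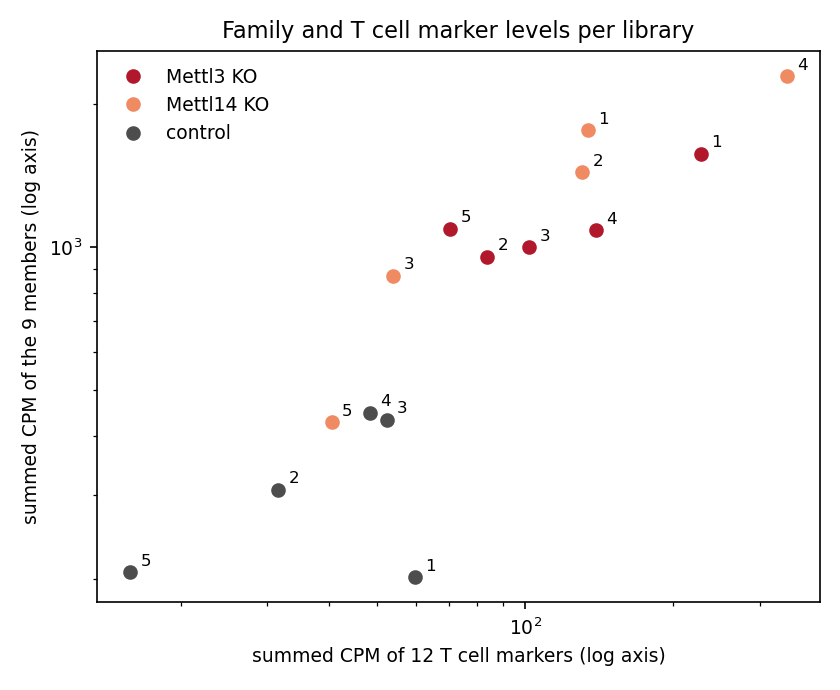
Summed level of the 9 IRG genes (CPM, log axis) against the summed level of 12 T cell markers (CPM, log axis) in each of the 15 libraries, each point marked with its replicate number. Mettl14 KO replicate 4 is highest on both axes and Mettl14 KO replicate 5 lies with the controls, while control replicate 1 has a T cell sum of 59.7 CPM beside a family sum of 201 CPM.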

How the data were processed

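RNA-seq of 15 CT26 tumors was used, 5 per group as titled. The submitters' processing notes name cutadapt 1.18, HISAT2 2.1.0, HTSeq 0.11.2, DESeq2 and the mm10 build. No source used here gives the strand setting or annotation release. For each knockout the authors deposited a table of raw read counts by Ensembl gene ID, and its 5 control columns were identical in both tables and used once. Lines for reads in no gene, ambiguous or unaligned reads held 56.8% to 86.2% of reads and were left out. The authors also deposited, per the file headers, tables of their own comparisons with the mean of normalized counts (a signal), log2 fold changes, a score (the test statistic) and p-values. How these were made is not stated, and their values appear only under that name. Of 54752 gene IDs, 54723 matched a symbol. No pair of replicates agreed within sampling noise (lowest chi-square per gene 9.14 over 30 pairs).

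Knockout and control libraries, 10 in each comparison, were fitted with the quasi-likelihood test of edgeR 4.0.16 (R 4.3.3), with filterByExpr (minimum count 10), TMM scaling, robust fitting and Benjamini-Hochberg adjustment at 0.05 over all genes tested. The knockouts were set against each other in a fit of 15 libraries. Standard errors came from the F statistic. The fit was tested on simulated data. Log2 CPM for correlations used a pseudocount of 0.5. Alternatives were RLE size factors, library totals, no filter, a filter of 1 CPM, DESeq2 1.42.0, limma voom (limma 3.58.1), a replicate block, another set of libraries in the fit, summed Tgtp counts and each library left out. Promoters came from RefSeq (GRCm38.p6). The members, lists and tests were chosen with earlier results of these data known. Every member is named; of each pathway list the 3 genes with the smallest p in the Mettl3 KO comparison, with Ifng, Irf1, Irgc1 and Irgq; of marker lists only counts and sums. Ifngr1 and single epithelial, erythroid and muscle markers were named after their values had been seen. 1 gene, left out of the lists and of the ranking by likeness, is not reported here.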

Additional observations from a re-analysis of the deposited data

Results flagged for a closer look

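Each of 66 groups of 5 tumors was searched for a highest or lowest library that stood apart. The gap to the next had to exceed 0.71 of the range of the group, and 9 stood apart. Chance gives this in about 1 in 20 independent groups of normally distributed values. These groups are not independent, since the members moved together and their sum was searched too, and CPM was not logged. The 9 therefore cannot be set against that share. In the family, Mettl3 KO replicate 1 was far above the other Mettl3 KO tumors for Irgm1 (211 CPM), for Iigp1 (691 CPM) and for the sum of the 9 members (1575 CPM). On library totals alone this library had 179 CPM for Irgm1, below the 183 CPM of Mettl3 KO replicate 4, and 585 CPM for Iigp1. The TMM factor of this library was 0.847. The same library was far above its group for the summed B cell markers (759 CPM). Mettl14 KO replicate 4 was far above its group for the summed B cell markers (814 CPM). Irgq was highest in Mettl14 KO replicate 1 (28.4 CPM), and Irgc1 in control replicate 1 (4.14 CPM). Mettl3 was highest in Mettl3 KO replicate 2 (16.2 CPM), and Mettl14 in control replicate 2 (89.5 CPM). Without Mettl3 KO replicate 1, 8 of 9 members passed the edgeR test in Mettl3 KO tumors, Ifi47 being lost. Over all genes that fit called 50 higher and 6 lower (0.246% of those tested).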

How the results depend on the processing

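In both knockouts all 9 members kept a positive log2 fold change against control under every alternative run, and Iigp1, Tgtp2 and Gm12250 were called in Mettl3 KO under each. In Mettl3 KO the 9 members called became 4 without a filter and 3 with all 15 libraries in 1 fit, and 4 to 9 with 1 library left out; the other alternatives gave 8 or 9. Genes called were 266 (1.24%) in the main fit. They became 100 (0.467%) with RLE, 122 (0.569%) with library totals, 62 (0.124%) without a filter and 81 (0.333%) at 1 CPM. DESeq2 called 2700 (12.6%), voom 5031 (23.5%) and the fit of 15 called 42 (0.171%). With 1 library left out they ran from 35 (0.152%, without control replicate 2) to 11625 (51.6%, without control replicate 1). In Mettl14 KO the 0 members called became 4 without a filter, 9 with DESeq2 and 7 in the fit of 15. With 1 library left out they ran from 0 to 8. The 0 genes called became 47 (0.0941%), 505 (2.35%) and 50 (0.204%) in the same alternatives. With 1 library left out the genes called ran from 0 to 1054 (4.86%). Between the knockouts 0 members were called throughout, and the 0 genes became 68 with DESeq2 and 0 to 1 with 1 library left out. The log2 difference between the knockouts turned positive for Tgtp2 at 1 CPM (0.0089), in the fit of the 10 knockout libraries (0.073) and with voom (0.16), and with voom for Igtp (0.011), Iigp1 (0.019) and Gm4951 (0.034). With 1 library left out it ran from -0.15 to 0.32 for Tgtp2, -0.51 to 0.14 for Igtp, -0.33 to 0.21 for Iigp1, -0.48 to 0.23 for Ifi47, -0.49 to 0.15 for Tgtp1 and -0.28 to 0.21 for Gm4951. The cause was not tested. The smallest count behind a member was 19 reads, of Tgtp1.

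No steady pairing by replicate number was seen. Deviations of same-numbered libraries correlated at -0.31 to 0.62 (Mettl3 KO with control), -0.75 to 0.23 (Mettl14 KO with control) and -0.69 to -0.089 (between knockouts). In these comparisons 1, 1 and 0 of 5 libraries were best matched with their own number. With 5 libraries per group this check cannot exclude pairing. With the replicate block, 9 members and 6002 genes (28.0%) were called in Mettl3 KO. In Mettl14 KO 2 members and 14 genes (0.065%) were called. Between the knockouts 0 members and 0 genes (0.0%) were called, and the log2 difference became 0.024 for Iigp1 and 0.17 for Tgtp2.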
